A study of Homo sapiens with 6 samples.

Results

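The genes described here copy the genome once per cell cycle: the enzymes of deoxynucleotide supply, the replicative polymerases and their sliding clamp, the factors that license and fire origins, and the assembly factors that restore chromatin and DNA methylation behind the fork. The list held 47 genes, given by name and ordered by role. Each gene was represented by the brightest probe set (by mean over the 6 arrays) among those that carried its symbol and no other. This gave 46 of the 47 genes, out of 11963 genes measured in the same way. UHRF1, the partner of DNMT1 at newly copied DNA, had no such probe set.

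The cells were HK2, a human kidney proximal tubule epithelial line immortalised with papillomavirus oncogenes. They were transfected at 30% confluence with OCRL siRNA in the tested cultures and with a non-targeting siRNA in the controls, and were harvested for RNA 96 h later. There were 3 arrays a group, titled biological replicates in the labels. The p-values set each difference against the spread between these arrays, which limma moderates with the variance of all probe sets. For genes with very close replicates, such as DNMT1 (SD 0.016 and 0.003, SE 0.039), the borrowed variance largely sets the SE. OCRL is a phosphoinositide phosphatase of endosomes whose loss causes Lowe syndrome. All the cells shared the same line, transfection reagent and medium, and each group received a single siRNA condition, so the effect of lower OCRL and of that siRNA itself cannot be told apart.

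DNA replication runs in an ordered way. In G1 phase the origin recognition complex, CDC6 and CDT1 load the MCM helicase on DNA, which licenses an origin. At the start of S phase the CDC7 kinase with its activator DBF4 fires the origins, polymerase alpha with primase lays down primers, and polymerases delta and epsilon extend them on the PCNA clamp, which the RFC complex loads. Many of these genes are transcribed at the boundary of G1 and S phase under E2F transcription factors, while a subset of subunits is known to be held at a steadier level through the cycle.

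OCRL mRNA was lower in every knockdown array. Its brighter probe set was at 7.52, 7.49 and 7.40 (log2 value) on the OCRL siRNA arrays and at 9.49, 9.48 and 9.50 on the control siRNA arrays, which left 24.6% of the control level (log2 difference -2.02, SE 0.048, limma adjusted p = 1.24e-05). Permuting the labels in an exact two-sided test gave p = 0.1, which is as small as 3 arrays against 3 allow. Arrays of the same group correlated at 0.998 to 0.999 (Pearson's r over probe sets, a description) and arrays of different groups at 0.994 to 0.995. Control siRNA replicate 1 lay above the other 2 control arrays in several cell cycle genes, at 12.89 against 12.69 and 12.70 for RRM2, at 11.22 against 10.97 and 10.98 for DBF4 and at 11.42 against 11.12 and 11.15 for FBXO5, genes named after their values were seen. Without that array 35 replication genes were called higher, and without any 1 of the other 5 arrays 30 were. Of the 8 renal epithelial markers listed, 6 lay above the median level of all probe sets, among them PAX8 and KRT18. CDH1 and PAX2 did not. Of 8 measured markers of the mature proximal tubule, 6 lay below that median, among them LRP2, CUBN and AQP1. HK2 cells thus showed little signal for most of these transport genes in either group. DPP4, MME and the dim ANPEP rose, 3 of 8, where 15.5% of all genes were called higher. Of the renal epithelial markers 5 fell (CDH6, EPCAM, KRT19, KRT8 and PAX8) and 0 rose, where 10.5% of all genes were called lower. Among other probe sets of these genes, 2 of 4 for CDH6 and 3 of 7 for PAX8 were called lower too. The bearing of these falls on the replication genes was not tested. The marker lists of endothelium, with 5 of 5 measured genes, and of leukocytes, with 3 of 3, lay below the median of probe sets, and 0 of their genes were called by limma. By unadjusted p under 0.05 these were 2 endothelial genes and 0 leukocyte genes. The share of all genes under that threshold was not computed, so these counts are no result about the markers. Of 6 fibroblast markers, 4 lay below the median and 1, LUM, fell.

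Replication genes were higher after OCRL knockdown. Of the 46 measured, 37 rose, 0 fell and 9 were not called by limma at an adjusted p of 0.05, where 15.5% of all genes were called higher and 10.5% lower. The 46 genes had a median log2 difference of 0.36 (OCRL siRNA minus control siRNA), a ratio of 1.28, whereas the median over all 11963 genes was 0.001, and 6.7% of all genes had a difference at least as large as the members' median. In 40 of the 46 the 3 OCRL siRNA values lay above all 3 control values, which held for 25.1% of all genes, and in 1, ORC4, they lay below, which held for 19.8%. Of the 46 genes 0 lay below the median level of all probe sets, while the shares over all genes include dim ones. The list was also chosen with earlier results of these data known. The size of the changes was modest. Only TK1, CDT1, PRIM1, ASF1B and DTL, 5 of 46, rose by at least 1.5-fold, as 2.51% of all genes did, and none of the 46 reached a doubling of signal by its brightest probe set.

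The direction was shared by most other probe sets of the same genes. The 16 members with more than 1 probe set had 21 others, of which 15 were called higher, 1 lower and 5 not called, where 13.2% of all 22215 probe sets were called higher, 9.89% lower and 23.1% in either direction. Of the 13 called members among them, 12 had every other probe set called higher as well. The exception was TYMS, whose dim second probe set was at 5.17, 5.28 and 5.20 on the OCRL siRNA arrays and 5.17, 5.28 and 5.22 on the controls. The call was kept by 30 of the 37 genes in every alternative processing in which they could be fitted. Some of the 30, such as CDT1 and DTL, were fitted in 14 of 15. They had no probe set left when those ending in _s_at or _x_at were left out. The other 7, POLA1, POLE3, PCNA, RPA1, ORC2, DBF4 and DNMT1, had adjusted p-values between 0.0264 and 0.0473, and lost the call in 5 to 10 of the alternatives each. The losses by array and by scaling are given with each gene.

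**Figure D1:**
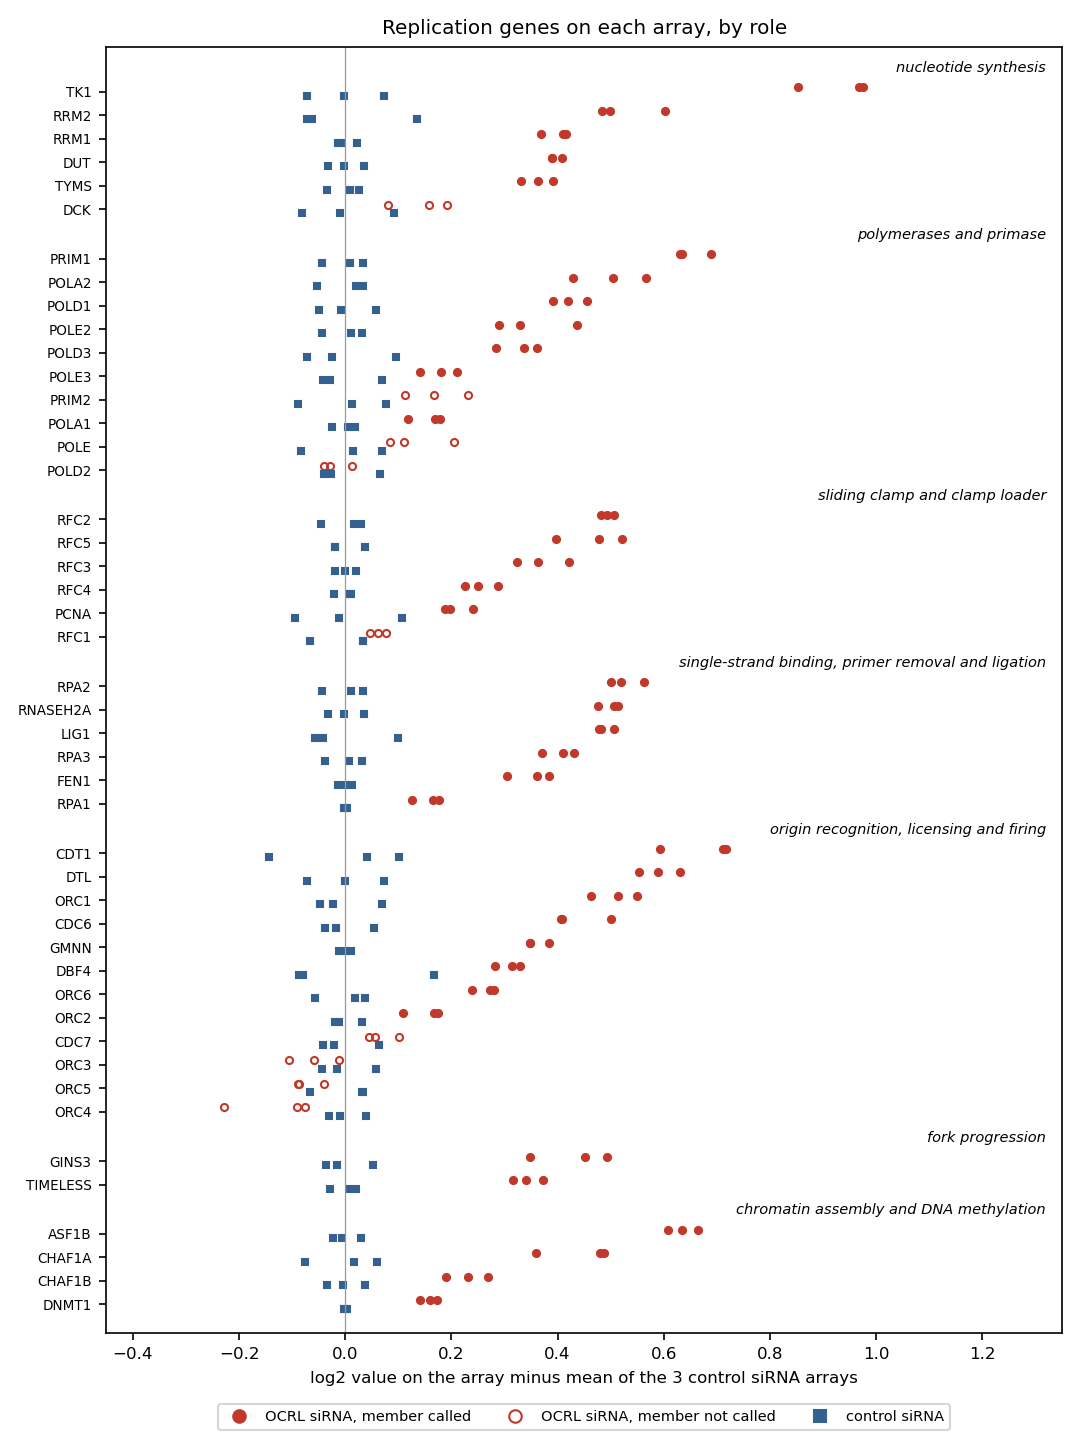
Log2 value of each of the 46 replication genes on each array, minus the mean of the 3 control siRNA arrays, grouped by role. Circles are OCRL siRNA arrays (open where the gene was not called) and squares control siRNA arrays. In 40 genes all circles lie right of all squares, and ORC4 lies to the left.

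**Figure D2:**
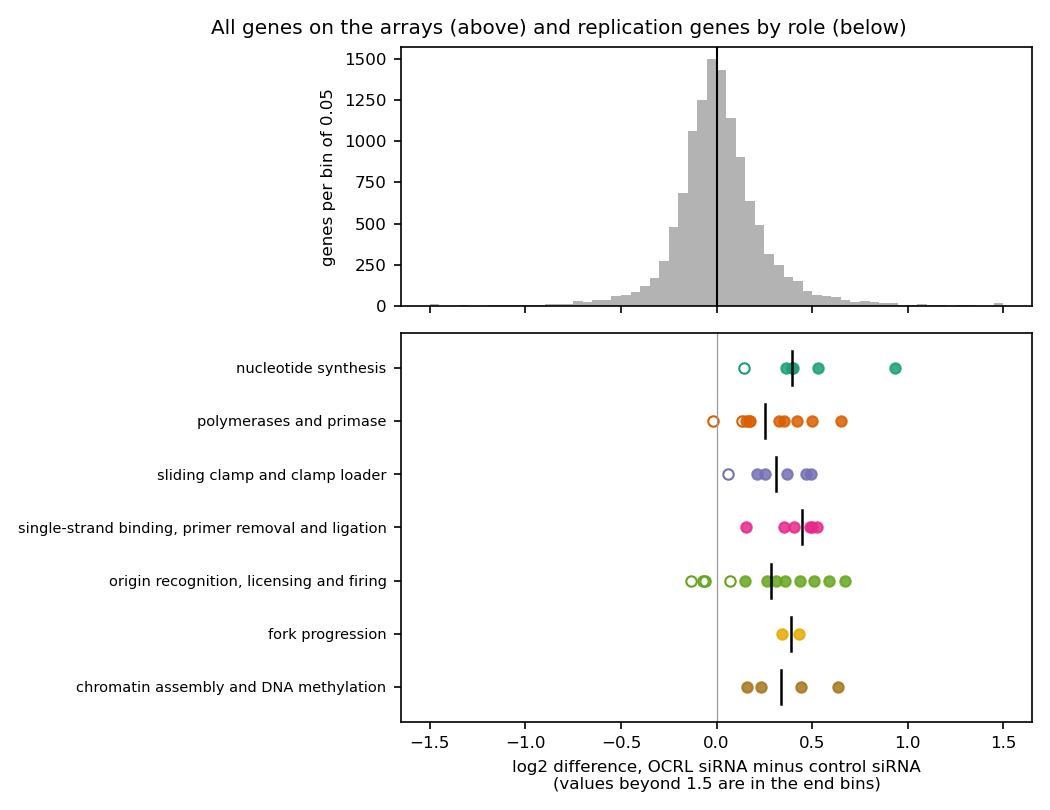
Upper panel, number of genes per bin of log2 difference for all 11963 genes, with their median as a line. Lower panel, the 46 replication genes by role (filled, called; open, not called; bar, median of the role), with medians of the roles between 0.25 and 0.45.

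The promoters of these genes were read next, since many genes of this kind are known to be transcribed under E2F factors. Whether E2F bore on the differences seen here was not tested. RefSeq promoters (GRCh38.p14, 250 bases before to 50 bases after each start site) were found for 44 of the 47 genes, with 59 start sites; POLD3, RPA2 and RPA3 had no entry. The E2F words searched were TTTCCCGC, TTTCGCGC, TTTGCCGC, TTTGGCGC and GGCGGGAA on either strand. The last word overlaps the first when both occur on opposite strands, and it was added after member promoters had been seen. At least 1 of these words was present in 24 of 44 genes (54.5%), against 10.2% of 9563 genes on the arrays that had a promoter and 6.67% of all 27305 genes in the table. Without the added word the shares were 43.2% of members, 6.08% of genes on the arrays and 3.99% of all genes. The word was found in 19 of 34 members that rose (55.9%) and in 4 of 9 that were not called (44.4%). Without the added word the order turned, with 41.2% of members that rose and 44.4% of those not called. Of the 37 words in member promoters, counted over all start sites, 24 began within 60 bases before the start (64.9%), against 24.0% of the 1268 words in promoters of genes on the arrays. Both counts include the added word and count overlapping words separately. A CCAAT box (CCAAT on either strand), a site of the factor NF-Y, was found in 23 of 44 member genes (52.3%) and in 44.2% of the genes on the arrays. A GC box (GGGCGG) was found in 32 members (72.7%) against 69.8% of those genes, and the cell cycle word TTTGAA in 5 (11.4%) against 15.6%. The GC box can overlap the E2F words. A match of letters is a description and not a measured binding site.

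The promoters shown are those of the genes that led their role by size of change, as far as they had an entry, with ORC3 as a gene that was not called although its promoter holds an E2F word (chosen after its value was seen). Each is given 5′ to 3′ on the gene's own strand, from 250 bases before to 20 bases after the start, with E2F words and CCAAT boxes in capitals. TK1, for the first of its 2 start sites, is at chr17:78187033-78187302 on the minus strand, PRIM1 at chr12:56752304-56752573 (minus), RFC2 at chr7:74254380-74254649 (minus), CDT1 at chr16:88803539-88803808 (plus), GINS3 at chr16:58392221-58392490 (plus), ASF1B at chr19:14136570-14136839 (minus) and ORC3 at chr6:87589885-87590154 (plus).
TK1: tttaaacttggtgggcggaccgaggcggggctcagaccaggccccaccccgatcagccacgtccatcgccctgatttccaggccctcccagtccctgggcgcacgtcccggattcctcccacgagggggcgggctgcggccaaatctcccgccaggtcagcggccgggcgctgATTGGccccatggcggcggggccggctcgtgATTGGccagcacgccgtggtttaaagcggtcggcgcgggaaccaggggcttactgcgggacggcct
PRIM1: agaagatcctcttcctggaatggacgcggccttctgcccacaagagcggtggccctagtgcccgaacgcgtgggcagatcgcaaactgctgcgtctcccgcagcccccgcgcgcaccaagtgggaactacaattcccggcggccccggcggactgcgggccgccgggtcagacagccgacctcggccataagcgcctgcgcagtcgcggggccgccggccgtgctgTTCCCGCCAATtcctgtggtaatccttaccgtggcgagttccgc
RFC2: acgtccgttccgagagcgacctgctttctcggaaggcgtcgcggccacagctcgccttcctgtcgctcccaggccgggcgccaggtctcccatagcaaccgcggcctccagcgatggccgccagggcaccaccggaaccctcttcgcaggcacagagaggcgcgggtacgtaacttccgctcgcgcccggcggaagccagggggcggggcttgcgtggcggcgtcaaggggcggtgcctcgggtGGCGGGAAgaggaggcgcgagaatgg
CDT1: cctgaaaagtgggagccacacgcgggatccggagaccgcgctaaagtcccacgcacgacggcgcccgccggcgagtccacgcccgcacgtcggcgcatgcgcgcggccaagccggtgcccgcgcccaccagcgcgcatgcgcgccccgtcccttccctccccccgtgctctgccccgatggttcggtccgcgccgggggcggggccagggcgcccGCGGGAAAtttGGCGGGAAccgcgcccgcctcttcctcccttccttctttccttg
GINS3: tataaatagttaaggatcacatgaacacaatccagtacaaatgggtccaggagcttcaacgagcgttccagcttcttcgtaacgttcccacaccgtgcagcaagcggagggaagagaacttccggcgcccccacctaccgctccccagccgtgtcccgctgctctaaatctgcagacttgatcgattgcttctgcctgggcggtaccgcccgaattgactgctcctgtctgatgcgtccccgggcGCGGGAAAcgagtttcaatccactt
ASF1B: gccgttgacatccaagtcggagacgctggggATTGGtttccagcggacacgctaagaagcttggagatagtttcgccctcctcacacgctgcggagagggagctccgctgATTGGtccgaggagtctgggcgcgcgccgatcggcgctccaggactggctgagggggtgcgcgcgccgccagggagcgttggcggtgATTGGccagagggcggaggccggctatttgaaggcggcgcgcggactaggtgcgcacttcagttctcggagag
ORC3: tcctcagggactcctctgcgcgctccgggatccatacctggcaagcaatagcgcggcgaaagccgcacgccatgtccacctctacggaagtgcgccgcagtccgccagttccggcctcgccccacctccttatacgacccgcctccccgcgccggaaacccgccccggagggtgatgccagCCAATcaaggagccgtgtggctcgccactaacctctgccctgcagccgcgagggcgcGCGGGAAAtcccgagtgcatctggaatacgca
CDT1 carries a pair of E2F words a few bases apart just before its start. In PRIM1 the E2F word, read on the other strand, runs into a CCAAT box, and in GINS3 and RFC2 the word spans the start site itself. ASF1B and TK1, among the 5 genes that rose by at least 1.5-fold, hold none of the E2F words in these windows and have CCAAT boxes instead, 3 in ASF1B and 2 at this start of TK1. ORC3 holds both an E2F word and a CCAAT box.

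**Figure D3:**
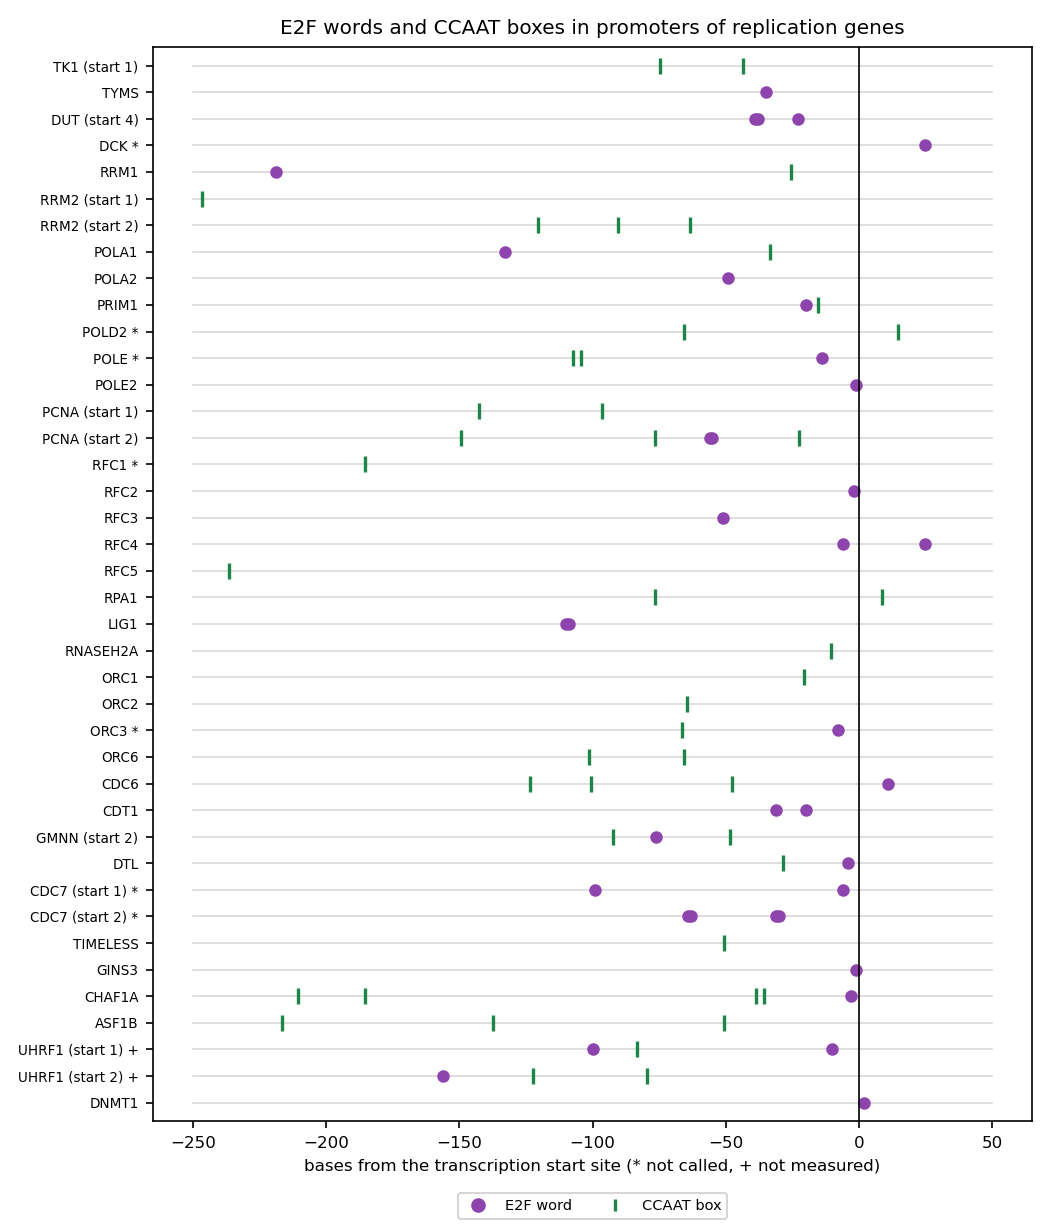
Positions of E2F words (circles) and CCAAT boxes (ticks) in promoters of replication genes that hold at least 1 of them, in bases from the transcription start site (0); each row is a start site. Circles gather just left of the start, where 24 of 37 words begin within 60 bases, and they occur in genes that were not called (asterisks) as well.

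The counts by role that follow stand beside 15.5% of all genes called higher and 10.5% called lower. Genes of nucleotide supply were described first. Of the 6 genes of deoxynucleotide synthesis, 5 rose and 1 was not called, with a median log2 difference of 0.40. TK1, the cytosolic thymidine kinase of the salvage pathway, was at 10.56, 10.68 and 10.68 (log2 value) on the OCRL siRNA arrays and at 9.71, 9.64 and 9.78 on the control siRNA arrays. Its difference of 0.93 (SE 0.058, 1.91-fold, limma adjusted p = 1.16e-04) was the largest of the 46. RRM2, the cell cycle-regulated small subunit of ribonucleotide reductase, which makes deoxynucleotides from ribonucleotides, was at 13.36, 13.24 and 13.26 on the OCRL siRNA arrays and at 12.89, 12.69 and 12.70 on the controls. By this probe set it rose by 0.53 (SE 0.070, adjusted p = 0.00237). The second RRM2 probe set was at 13.01, 13.02 and 13.03 on the OCRL siRNA arrays and at 12.00, 12.04 and 12.07 on the controls, a difference of 0.98 (SE 0.041, 1.97-fold, adjusted p = 3.54e-05). The probe sets thus gave the same direction and sizes that differed by more than 1.5 times on the log2 scale.

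RRM1, the large subunit of the same enzyme, was at 12.60, 12.60 and 12.56 on the OCRL siRNA arrays and at 12.21, 12.17 and 12.18 on the controls (difference 0.40, SE 0.041, adjusted p = 7.80e-04). DUT, which removes dUTP and so keeps uracil out of DNA, rose by 0.40 (SE 0.041), and by 0.52 and 0.25 in its other probe sets. TYMS, which makes thymidylate, rose by 0.36 (SE 0.043). DCK, the deoxycytidine salvage kinase, was at 10.88, 10.80 and 10.91 on the OCRL siRNA arrays and at 10.81, 10.64 and 10.71 on the controls. Its groups overlapped and it was not called (difference 0.14, SE 0.060, adjusted p = 0.141), but it passed with trend and robust settings (0.0395) and with array weights (0.044).

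Among the polymerases and primase, of 10 genes, 7 rose and 3 were not called, with a median of 0.25, the lowest of the roles. PRIM1, the catalytic primase subunit, was at 10.98, 10.98 and 11.04 on the OCRL siRNA arrays and at 10.36, 10.30 and 10.38 on the controls (difference 0.65, SE 0.044, 1.57-fold, adjusted p = 1.63e-04). PRIM2, the other primase subunit, was at 9.01, 8.94 and 8.89 on the OCRL siRNA arrays and at 8.79, 8.68 and 8.85 on the controls. The PRIM2 groups did not overlap, yet it was not called (difference 0.17, SE 0.059, adjusted p = 0.0847), except with trend and robust settings (0.0333). POLA2, the accessory B subunit of polymerase alpha, was at 8.66, 8.72 and 8.58 on the OCRL siRNA arrays and at 8.10, 8.19 and 8.17 on the controls, a difference of 0.50 (SE 0.053, adjusted p = 8.95e-04). POLA1, the catalytic subunit of that polymerase, rose by 0.16 (SE 0.042, adjusted p = 0.0383), and lost the call when any 1 of the 6 arrays was left out (adjusted p = 0.0569 to 0.127), with median centring (0.125) and with quantile normalisation (0.107). Within the 4-gene polymerase alpha-primase complex the differences thus ran between 0.16 and 0.65.

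In polymerase delta, which synthesises the lagging strand, the catalytic subunit POLD1 was at 8.45, 8.42 and 8.48 on the OCRL siRNA arrays and at 8.08, 7.98 and 8.02 on the controls (difference 0.42, SE 0.047, adjusted p = 0.00112). The accessory subunit POLD3 rose by 0.33 (SE 0.057, adjusted p = 0.00694). POLD2, the subunit that joins the others, was at 10.038, 9.996 and 9.985 on the OCRL siRNA arrays and at 9.999, 9.986 and 10.091 on the controls. Its groups overlapped, and its difference was -0.02 with a 95% confidence interval of -0.13 to 0.09. In polymerase epsilon, the leading-strand enzyme, the subunit gene POLE2 rose by 0.35 (SE 0.054, adjusted p = 0.00413). POLE3, a histone-fold subunit, rose by 0.18 (SE 0.049, adjusted p = 0.0423) but lost the call without any 1 of 5 arrays, all but control siRNA replicate 1 (adjusted p = 0.0812 to 0.132), and with median centring (0.102). The catalytic POLE was at 8.68, 8.58 and 8.56 on the OCRL siRNA arrays and at 8.54, 8.39 and 8.49 on the controls, without overlap and without a call (difference 0.13, SE 0.058, adjusted p = 0.156).

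Differences between subunits were also read within each array, as the log2 value of one gene minus that of its partner, which shows unequal change and no absolute level. PRIM1 minus PRIM2 was 1.98, 2.04 and 2.15 on the OCRL siRNA arrays and 1.57, 1.62 and 1.53 on the controls. POLA2 minus POLA1 was -0.93, -0.91 and -1.06 on the OCRL siRNA arrays and -1.37, -1.30 and -1.27 on the controls. For POLD1 minus POLD2 the values were -1.593, -1.578 and -1.504 on the OCRL siRNA arrays and -1.916, -2.009 and -2.073 on the controls. The groups did not overlap in these 3 pairs. Of 10 such pairs computed, all chosen after the differences were seen and none tested, 9 did not overlap. This count follows in part from that choice, and no share over other gene pairs was computed. The exception among the 10 pairs was RRM2 minus RRM1, at 0.76, 0.65 and 0.70 on the OCRL siRNA arrays and 0.68, 0.51 and 0.52 on the controls. That pair used the brighter RRM2 probe set. The second RRM2 probe set, with its larger difference of 0.98, lay above RRM1 on every OCRL siRNA array and below it on every control array. Its groups therefore did not overlap against RRM1, and the overlap holds for the brighter RRM2 probe set only.

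**Figure D4:**
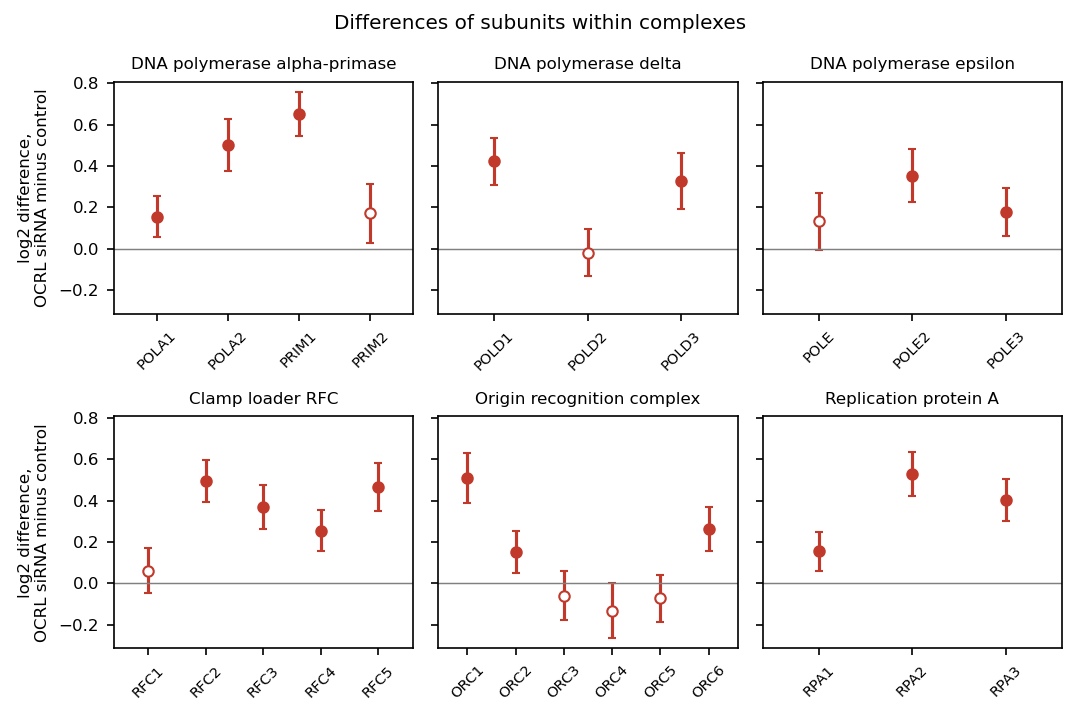
Log2 difference (OCRL siRNA minus control siRNA) of the subunits of 6 replication complexes, with 95% confidence intervals from limma (3 arrays per group); filled circles were called and open circles not. Within a complex the subunits lie at different heights, from 0.51 (ORC1) to -0.13 (ORC4) in the origin recognition complex.

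For the sliding clamp and its loader, of 6 genes, 5 rose and RFC1 was not called, with a median of 0.31. RFC2, a small subunit of the loader that opens the clamp and places it on primed DNA, was at 10.37, 10.39 and 10.36 on the OCRL siRNA arrays and at 9.83, 9.90 and 9.91 on the controls (difference 0.49, SE 0.042, adjusted p = 4.01e-04). RFC5 was at 11.73, 11.65 and 11.77 on the OCRL siRNA arrays and at 11.29, 11.23 and 11.23 on the controls (difference 0.47, SE 0.050). RFC3 was at 10.74, 10.64 and 10.68 on the OCRL siRNA arrays and at 10.34, 10.30 and 10.32 on the controls (difference 0.37, SE 0.045), and RFC4 rose by 0.25 (SE 0.041). All 4 small subunits thus rose, as did each other probe set of RFC2, RFC3 and RFC5.

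The large subunit RFC1 was at 10.50, 10.53 and 10.51 on the OCRL siRNA arrays and at 10.39, 10.48 and 10.49 on the controls. The groups lay close without overlapping, and RFC1 was not called (difference 0.06, 95% confidence interval -0.05 to 0.17, adjusted p = 0.406), nor were its other 2 probe sets. RFC2 minus RFC1 within an array was -0.13, -0.14 and -0.15 on the OCRL siRNA arrays and -0.55, -0.59 and -0.58 on the controls. The clamp itself, PCNA, which tethers polymerases and recruits many fork enzymes, was at 13.57, 13.56 and 13.61 on the OCRL siRNA arrays and at 13.48, 13.28 and 13.36 on the controls. Its rise of 0.21 (SE 0.060, 1.16-fold, adjusted p = 0.0473) was among the least secure: the call was lost without any 1 of 5 arrays, all but control siRNA replicate 1 (adjusted p = 0.0966 to 0.139), with median centring (0.103) and with quantile normalisation (0.0529).

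All 6 measured genes of single-strand binding, primer removal and ligation rose, with a median of 0.45, where 15.5% of all genes were called higher. Of these, RPA1 lost the call in 8 of 15 alternatives. RPA2, the middle subunit of the complex that coats single-stranded DNA, was at 11.40, 11.44 and 11.38 on the OCRL siRNA arrays and at 10.89, 10.84 and 10.91 on the controls (difference 0.53, SE 0.044, adjusted p = 3.72e-04). RNASEH2A, the catalytic subunit of the ribonuclease that takes ribonucleotides out of DNA, was at 11.37, 11.36 and 11.34 on the OCRL siRNA arrays and at 10.83, 10.86 and 10.89 on the controls (difference 0.50, SE 0.042). LIG1, the ligase that seals Okazaki fragments, was at 9.15, 9.15 and 9.18 on the OCRL siRNA arrays and at 8.61, 8.77 and 8.63 on the controls (difference 0.49, SE 0.054). In each of these 3 genes the gap between the groups was larger than the spread within either.

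RPA3, the small subunit of the same complex, rose by 0.40 (SE 0.043), and FEN1, the nuclease that trims the flap before ligation, by 0.35 (SE 0.042), or 0.45 in its other probe set. RPA1, the large DNA-binding subunit, was at 12.61, 12.62 and 12.58 on the OCRL siRNA arrays and at 12.45, 12.45 and 12.45 on the controls. It rose by 0.16 (SE 0.040, adjusted p = 0.0316), and lost the call without any 1 of 5 arrays, all but control siRNA replicate 1 (adjusted p = 0.0695 to 0.0951), and after median centring (0.101). The second RPA1 probe set was called with a difference of 0.25 (adjusted p = 0.0174).

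In origin recognition, licensing and firing, of 12 genes, 8 rose and 4 were not called, with a median of 0.29, and this role had the widest spread. CDT1, which brings the MCM helicase to origins and is destroyed once S phase starts, was at 7.734, 7.860 and 7.853 on the OCRL siRNA arrays and at 7.243, 6.999 and 7.183 on the controls (difference 0.67, SE 0.075, 1.596-fold, adjusted p = 0.00109). DTL, the substrate receptor of the ubiquitin ligase that destroys CDT1 on PCNA-bound DNA, was at 12.10, 12.03 and 12.06 on the OCRL siRNA arrays and at 11.55, 11.47 and 11.40 on the controls (difference 0.59, SE 0.052, 1.51-fold, adjusted p = 4.49e-04). GMNN, geminin, the protein inhibitor of CDT1, rose by 0.36 (SE 0.040, adjusted p = 0.00104). The mRNAs of the licensing factor and of its inhibitor and its destroyer were therefore all higher. CDT1 minus GMNN within an array was -4.56, -4.43 and -4.47 on the OCRL siRNA arrays and -4.71, -4.93 and -4.76 on the controls, so CDT1 differed more than GMNN on this scale. That pair was not tested. CDC6, which loads the helicase with CDT1, rose by 0.44 (SE 0.050, adjusted p = 0.0012).

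ORC1, the subunit of the origin recognition complex known to be made and destroyed in each cycle, was at 8.47, 8.56 and 8.52 on the OCRL siRNA arrays and at 8.08, 7.96 and 7.98 on the controls (difference 0.51, SE 0.051, adjusted p = 7.24e-04). ORC6, another subunit, rose by 0.26 (SE 0.045, adjusted p = 0.0065). ORC2 rose by 0.15 (SE 0.043, adjusted p = 0.0465), and lost the call when any 1 of the 6 arrays was left out (adjusted p = 0.066 to 0.14), and also with median centring (0.165) or quantile normalisation (0.0979). The core subunits ORC3, ORC4 and ORC5 were the only measured members besides POLD2 with a difference below 0.

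ORC3 was at 10.55, 10.60 and 10.64 on the OCRL siRNA arrays and at 10.61, 10.64 and 10.71 on the controls, with a difference of -0.06 (95% confidence interval -0.18 to 0.06). ORC5 was at 10.03, 10.03 and 10.08 on the OCRL siRNA arrays and at 10.05, 10.15 and 10.15 on the controls (-0.07, 95% confidence interval -0.19 to 0.04). ORC4 was at 11.24, 11.38 and 11.40 on the OCRL siRNA arrays and at 11.46, 11.44 and 11.51 on the controls, below them on every array (-0.13, SE 0.055, adjusted p = 0.141). Its second, dimmer probe set was at 8.47, 8.40 and 8.55 on the OCRL siRNA arrays and at 8.73, 8.78 and 8.78 on the controls, and was called lower (-0.29, SE 0.052, adjusted p = 0.00801). ORC4 was therefore called lower wherever that probe set or the mean of both was used, and also with trend and robust settings (adjusted p = 0.0343). ORC1 minus ORC4 within an array was -2.77, -2.82 and -2.87 on the OCRL siRNA arrays and -3.39, -3.48 and -3.53 on the controls.

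DBF4, the activating subunit of the kinase that fires origins, was at 11.37, 11.34 and 11.39 on the OCRL siRNA arrays and at 11.22, 10.97 and 10.98 on the controls. It rose by 0.31 (SE 0.075, adjusted p = 0.0264), with control siRNA replicate 1 nearest to the OCRL siRNA arrays, and lost the call without any 1 of the other 5 arrays (adjusted p = 0.0634 to 0.0857). The kinase subunit CDC7 was at 10.21, 10.16 and 10.15 on the OCRL siRNA arrays and at 10.07, 10.17 and 10.09 on the controls. These groups overlapped, and CDC7 was not called (difference 0.07, 95% confidence interval -0.04 to 0.18, adjusted p = 0.373). Its 2 start sites nevertheless held 6 matches to the E2F words between them, some of which overlap on opposite strands.

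Among the genes of fork progression, GINS3, a subunit of the GINS complex in the active helicase, was at 9.73, 9.59 and 9.69 on the OCRL siRNA arrays and at 9.29, 9.20 and 9.23 on the controls (difference 0.43, SE 0.055, adjusted p = 0.00191), and by 0.51 higher in its other probe set. TIMELESS, which stabilises moving forks, was at 10.32, 10.29 and 10.26 on the OCRL siRNA arrays and at 9.95, 9.96 and 9.92 on the controls (difference 0.34, SE 0.042). Both genes of this role thus rose, with no overlap between the groups. Of all genes 15.5% were called higher and 25.1% lay above all control values, and 2 genes are too few to read against those shares.

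Of the 5 chromatin genes 4 were measured, and all 4 rose, with a median of 0.34, where 15.5% of all genes were called higher. ASF1B, the histone H3-H4 chaperone of dividing cells, was at 8.92, 8.98 and 8.95 on the OCRL siRNA arrays and at 8.29, 8.31 and 8.35 on the controls (difference 0.64, SE 0.042, 1.55-fold, adjusted p = 1.50e-04). CHAF1A, the large subunit of chromatin assembly factor CAF-1, which places new histones behind the fork, was at 10.34, 10.34 and 10.21 on the OCRL siRNA arrays and at 9.78, 9.87 and 9.92 on the controls (difference 0.44, SE 0.058), and its other probe sets gave 0.40 each. CHAF1B, the middle subunit of CAF-1, was at 8.44, 8.40 and 8.48 on the OCRL siRNA arrays and at 8.25, 8.21 and 8.18 on the controls (difference 0.23, SE 0.045, adjusted p = 0.0113). DNMT1, which copies CpG methylation to the new strand, rose by 0.16 (SE 0.039, adjusted p = 0.0279). DNMT1 lost the call without any 1 of 5 arrays, all but control siRNA replicate 1 (adjusted p = 0.0641 to 0.0995), and after median centring (0.108).

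The neighbours of these genes in the same pathways, from lists chosen with earlier results of these data known, were read for comparison. Of all genes 15.5% were called higher and 10.5% lower. Of the 11 genes of the replicative helicase and its loading, 8 rose and 0 fell, with a median of 0.29; CDC45 (0.78), MCM7 (0.59), MCM10 (0.52) and GINS2 (0.43) differed most. Of 10 measured fork factors, 7 rose and 0 fell, with a median of 0.25. They were led by DSCC1 (0.64), a subunit of an alternative clamp loader, and by PCLAF (0.49), a PCNA-binding protein, with ATAD5 (0.32), which unloads PCNA, and the checkpoint mediator CLSPN (0.28). The dim second probe set of DSCC1 was not called. POLD4, the smallest subunit of polymerase delta, rose by 0.35 (SE 0.042). It was 1 of 3 measured genes in the list of other polymerase and ribonuclease H2 subunits, with 0 lower, too few to read against those shares.

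Of 10 histone chaperones and maintenance factors, 4 rose, NASP (0.30), ASF1A (0.25, not called by its other probe set), RBBP7 (0.18) and HAT1 (0.16), and 0 fell, with a median of 0.13. Among 9 other deoxynucleotide enzymes 3 rose and 0 fell, with a median of 0.13. TK2, the mitochondrial thymidine kinase, was at 9.97, 9.99 and 9.97 on the OCRL siRNA arrays and at 9.00, 8.99 and 9.11 on the controls, a difference of 0.94 (SE 0.049, 1.92-fold) close to that of TK1. SAMHD1, which breaks down deoxynucleotides, rose by 0.43 (SE 0.056), and DTYMK, the thymidylate kinase, by 0.37 (SE 0.045). The other 6 were not called. Among them CMPK1, NME1 and the dim SHMT1 lay below all control values, as 19.8% of all genes did. DGUOK and GUK1 lay above all control values, as 25.1% of all genes did. Of 17 measured genes of purine and pyrimidine synthesis, 4 rose (23.5%) and 2 fell, with a median of 0.06, near the shares of all genes called (15.5% higher and 10.5% lower), so the counts are no result about this pathway. PPAT (0.24, not called by its other probe set), CTPS2 (0.21), GMPS (0.19) and CTPS1 (0.18) were higher, and CAD (-0.20), the first enzyme of pyrimidine synthesis, and IMPDH2 (-0.17), of guanine nucleotide synthesis, were lower. CTPS1 and IMPDH2 were named after their values were seen.

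Of 20 regulators of the G1/S boundary, 10 rose and 1, E2F4, fell, with a median of 0.23, where 15.5% of all genes were called higher and 10.5% lower. SKP2, the ubiquitin ligase subunit that destroys the cell cycle inhibitor CDKN1B, was at 11.91, 11.81 and 11.91 on the OCRL siRNA arrays and at 11.00, 10.94 and 10.94 on the controls (difference 0.92, SE 0.047, adjusted p = 6.83e-05). E2F8, a repressor of the E2F family, was at 9.01, 8.95 and 9.11 on the OCRL siRNA arrays and at 8.31, 8.03 and 8.05 on the controls (difference 0.89, SE 0.086). The cyclins CCND1 (0.71, SE 0.079) and CCNE2 (0.51, SE 0.066) followed. E2F1, the activator most associated with these promoters, was at 8.80 ± 0.078 on the OCRL siRNA arrays and 8.76 ± 0.062 on the control siRNA arrays (SD, n = 3 each; difference 0.04, limma adjusted p = 0.653), and was not called. The E2F4 fall (-0.20, adjusted p = 0.0316) was not seen in its second probe set, and the gene was named after its value was seen. MKI67, a marker of cycling cells, rose by 0.52 (SE 0.044) and 0.35 (SE 0.042) in its 2 brighter probe sets and was not called in the other 2. In bulk RNA a larger share of cells in S phase and more mRNA per cell cannot be told apart, and cell number, cycle phase and DNA synthesis were not analysed here.

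**Figure D5:**
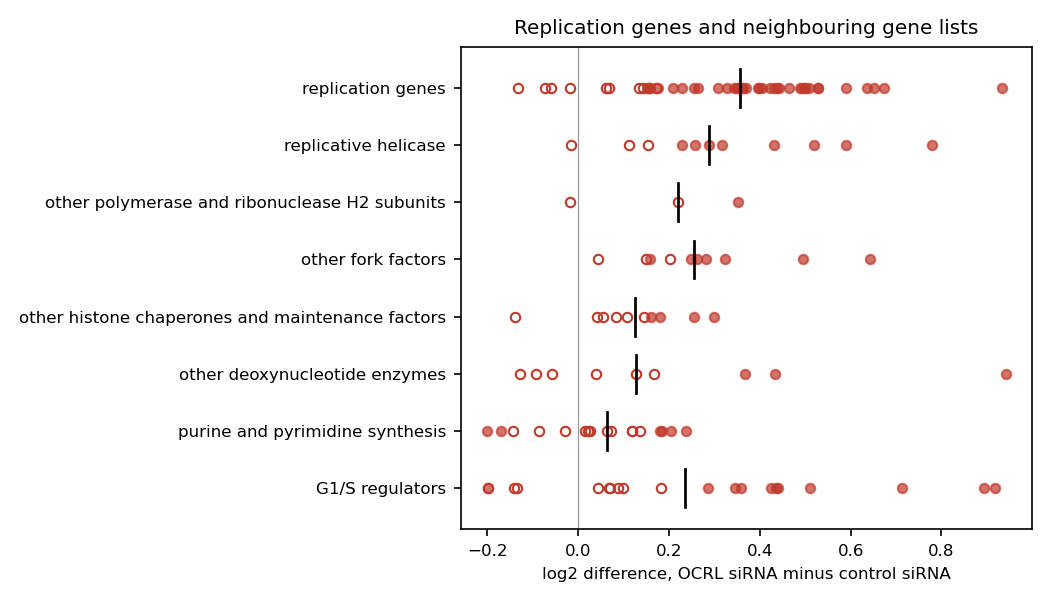
Log2 difference (OCRL siRNA minus control siRNA) of the 46 replication genes and of the measured genes of 7 neighbouring lists; filled circles were called, open circles not, and bars are medians. The bar lies at 0.36 for the replication genes, at 0.29 for the replicative helicase and at 0.06 for purine and pyrimidine synthesis.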

How the data were processed

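Biotin-labelled RNA of 6 HK2 cultures was hybridised to single-colour Affymetrix arrays, 1 per sample, per the labels' protocols. Values were deposited on a log2 scale, made by the authors with affy and RMA per the submitters' processing notes, whose versions are not given in the sources used here, and ran from 2.91 to 15.08. RMA brings the arrays' distributions together, which would shrink any shift that most genes share. The number of arrays limits the precision.

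After 62 control probe sets were left out, 22215 entered a two-sided test of group alone by lmFit and eBayes (limma 3.58.1, R 4.3.3), and p-values were adjusted by Benjamini-Hochberg over all of them. Called means an adjusted p under 0.05. A single symbol was held by 19064 probe sets, several by 1043 and none by 2108; only the first were named. The members, roles and lists were chosen with earlier results of these data known, and no set test was run. Every member is named; values on every array are given for up to 3 called members per role with the largest difference and for each member not called, with PCNA, RPA1 and DBF4 added after their calls were seen to be unstable, and up to 4 called genes are named per neighbouring list. The fit was tested on simulated data. Promoter sequences are from RefSeq (GRCh38.p14). Figures used matplotlib 3.10.9 in Python 3.11.15. Alternatives were a block for the replicate number, leaving out each array in turn, other scalings, variance models and array weights, dim or shared probe sets left out, and other probe sets per gene. Probe sets ending in _s_at or _x_at, which stand for members such as DUT, CHAF1A and ORC6, may share signal with similar transcripts.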

Additional observations from a re-analysis of the deposited data

How the results depend on the processing

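Of 37 members called higher, 30 kept the call in each of the 15 alternatives in which they could be fitted, and no called member changed sign. The count of members called higher was 30 to 35 with 1 array left out, 31 with the replicate block, 34 after quantile normalisation, 31 after median centring, 39 with trend and robust settings, 38 with array weights, and 37 without dim probe sets and also with a gene's mean or most variable probe set. Without _s_at and _x_at probe sets, 34 members could be measured, 22 were higher and 1 lower, their median was 0.34, and 2348 of 11813 probe sets were called, against 5137 of 22215; this setting tests fewer probe sets, and OCRL has no probe set left in it. The count of members called lower was 0, or 1 (ORC4) with trend and robust settings, without _s_at and _x_at probe sets, and with the mean or most variable probe set. The members' median of 0.36 ran from 0.34 to 0.37 with 1 array left out and was 0.31 after median centring, which lowered the median of all probe sets from -0.007 to -0.053. The share of called probe sets that were higher was 57.2% for the deposited values, 42.0% with median centring and 52.2% with quantile normalisation. Leaving out 1 array gave 3576 to 4898 called probe sets and an OCRL difference of -2.05 to -1.99.

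Deviations from the group means correlated at 0.14, 0.12 and -0.01 between samples with the same replicate number, so the numbers were not taken as pairs; 2 of the 3 OCRL siRNA samples correlated best with their own number. The replicate block gave 4571 called probe sets, and POLA1, POLE3, PCNA, RPA1, ORC2 and DNMT1 lost the call with it (adjusted p = 0.0673 to 0.0992). Each p-value rests on 3 arrays per group.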
